A study of Mus musculus with 11 samples.

Results

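Myeloid C-type lectin receptors are described here through 10 genes chosen by their mouse symbols: Clec7a, Clec4e, Clec4d, Clec4n, Clec5a, Clec4a2, Clec12a, Clec4a1, Clec4a3 and Clec10a. All 10 matched 1 Ensembl identifier each among the 51912 genes of the count table, and all 10 passed the filter on low counts that left 15703 genes for testing. The RNA-seq came from bone marrow of C57BL/6 mice that had been transduced with retroviruses so that a mutant growth factor receptor and a mutant transcription factor were switched on in a set order. CSF3R is the receptor for granulocyte colony-stimulating factor, and its T618I mutation signals without ligand. CEBPA is a transcription factor needed for granulocyte formation, and V314VW is an insertion in its DNA-binding end.

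CSF3R-only cells (n = 4) carried CSF3R T618I in a constitutive vector marked by GFP, next to an empty vector that Cre recombinase opens. CSF3R-first cells (n = 3) carried the same constitutive CSF3R T618I, and CEBPA V314VW came on only after Cre was activated. CEBPA-first cells (n = 4) carried constitutive CEBPA V314VW, and CSF3R T618I came on after Cre. Every group therefore held CSF3R T618I, the control group included. Donor marrow expressed a tamoxifen-dependent Cre, and all groups received 4-hydroxytamoxifen for 48 h after cells lacking lineage markers and positive for both fluorescent reporters had been sorted. The oncogenes were human copies driven by viral vectors in mixed progenitors, so their dose is ectopic. The labels name the samples by letter and do not say whether a letter stands for an animal, so p-values measure the spread between these samples only. Donor animals were healthy, of the same strain background and 6 to 12 weeks old.

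C-type lectin receptors of myeloid cells are surface proteins that bind sugars and lipids of fungi, bacteria and damaged cells. Some of them activate the cell through the kinase SYK, either by a short motif in their own tail or by pairing with the adaptors FcRγ (Fcer1g) or DAP12 (Tyrobp), and the CARD9 complex then drives cytokine genes. Others carry an inhibitory motif (ITIM) that recruits the phosphatases SHP-1 and SHP-2. Neutrophils, monocytes, macrophages and dendritic cells use different mixtures of these receptors.

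The samples held 47905747 to 72268346 counts, and a count of 3, the limit that a count of 0 allows, corresponded to 0.0383 to 0.0648 CPM (counts scaled to library size, here always normalized with edgeR's trimmed mean of M-values, TMM). CSF3R-first replicate A stood apart from its group: its counts differed from those of replicates B and C by 99.1 and 74.5 (chi-square divided by its degrees of freedom), against 22.2 between B and C and at most 38.9 within the other groups. Cells were sorted as lineage-negative and then cultured, and the 10 neutrophil marker genes were above the floor in all samples. They summed to 24392 to 29788 CPM in the CSF3R-only samples, 13622 to 23663 for CSF3R-first and 6137 to 8193 in CEBPA-first. Mmp8 alone averaged 4824 CPM in CEBPA-first and made up most of that sum, while Camp averaged 0.562 CPM there. The T cell gene Cd3e and the natural killer cell gene Ncr1 were at 0 in all samples, but other lymphoid markers were detected at low levels. Between CSF3R-only and CEBPA-first, Cd3d averaged 0.242 and 0.0475 CPM and Cd79a 0.615 and 0.127 CPM. The natural killer cell gene Klrb1c averaged 0.0778 and 0.647 CPM and the B cell gene Cd79b 3.42 and 6.06 CPM.

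Of the 10 genes, 9 lie on chromosome 6 and Clec10a lies on chromosome 11. Clec4a1, Clec4a3, Clec4a2, Clec4n, Clec4d and Clec4e stand in that order at chr6:122921848-123289870 (GRCm38, GENCODE M21), a stretch of 368 kb. Clec12a and Clec7a lie further along at chr6:129342691-129472779, and Clec5a is alone at chr6:40574894-40585821. Clec10a is at chr11:70156197-70170834. No exon base of any of the 10 genes is shared with another annotated gene. Clec10a is the exception for read assignment: 77.7% of its transcript lies in stretches at least 97% identical over 100 bases or more to its neighbour Mgl2, so its counts and those of Mgl2 may be divided between the pair in ways that the counting decides. The annotation lists mouse Clec7a with the biotype polymorphic pseudogene.

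The 250 bases upstream of a start site were taken from RefSeq (GRCm38.p6) for 8 of the 10 genes, and Clec4n and Clec10a had no entry. Each window was searched on both strands for 3 motifs: TTNNGCAA, of the type bound by C/EBP factors, GAGGAA, of the type bound by the myeloid factor PU.1, and TGANTCA, of the type bound by AP-1. Of the genes with a window, Clec4d and Clec7a fell most from CSF3R-only to CEBPA-first, and Clec4e, the neighbour of Clec4d, fell less. The windows of Clec7a, Clec4d and Clec4e are printed 5′ to 3′ on the strand of the gene, with every match to the 3 motifs in capitals. They cover chr6:129472780-129473029 (minus strand), chr6:123261857-123262106 (plus strand) and chr6:123289872-123290121 (minus strand) and hold no annotated exon base.
Clec7a: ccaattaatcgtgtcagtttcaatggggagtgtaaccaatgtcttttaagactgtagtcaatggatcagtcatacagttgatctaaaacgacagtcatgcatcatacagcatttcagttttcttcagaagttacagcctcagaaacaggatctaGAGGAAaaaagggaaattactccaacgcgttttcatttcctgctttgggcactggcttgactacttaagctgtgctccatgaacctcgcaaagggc
Clec4d: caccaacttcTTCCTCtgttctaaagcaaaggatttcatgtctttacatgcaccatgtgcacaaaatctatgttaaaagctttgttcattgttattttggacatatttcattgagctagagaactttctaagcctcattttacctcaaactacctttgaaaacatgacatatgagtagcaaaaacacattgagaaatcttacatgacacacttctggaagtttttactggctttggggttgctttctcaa
Clec4e: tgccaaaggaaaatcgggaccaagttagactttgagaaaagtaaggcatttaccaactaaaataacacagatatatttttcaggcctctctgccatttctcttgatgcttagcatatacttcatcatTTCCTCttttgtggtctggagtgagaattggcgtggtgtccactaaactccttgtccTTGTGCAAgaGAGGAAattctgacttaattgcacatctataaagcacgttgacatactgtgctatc

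The C/EBP-type motif was in the windows of 2 of the 8 genes, Clec4e and Clec12a, and in 10.8% of all 27025 genes with an entry. It was absent for Clec5a and Clec4a3, which fell less than Clec4e in CEBPA-first against CSF3R-only (log2 fold changes -0.24, -0.80 and -0.98). In Clec4e the match begins 66 bases before the start site and a PU.1-type match follows at 56 bases. The Clec12a window lies inside annotated exon sequence, so 30 bases around its C/EBP-type match are shown, at chr6:129350093-129350122 on the plus strand, with the match in capitals, which begins 140 bases before the start site.
Clec12a: gtaggagcaaaTTGCGCAActcgtatgaag
The PU.1-type motif was in 7 of the 8 genes, the exception being Clec4a2, and in 25.9% of all genes. The 8 genes had 10 windows, since Clec4a3 and Clec7a had more than 1 start site, and a gene counted if any window matched. The Clec4a3 window at chr6:122952265-122952514 held no PU.1-type match. The AP-1-type motif was in Clec12a alone of the 8 and in 7.82% of all genes. These are matches of letters, and no factor binding was measured here.

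Most of these receptor genes were highest in CSF3R-only, intermediate in CSF3R-first and lowest in CEBPA-first, and 3 genes, Clec12a, Clec10a and Clec5a, departed from that order. In bulk samples such as these, fewer cells of a type and less RNA per cell cannot be told apart. The activating receptors are described first.

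**Figure D1:**
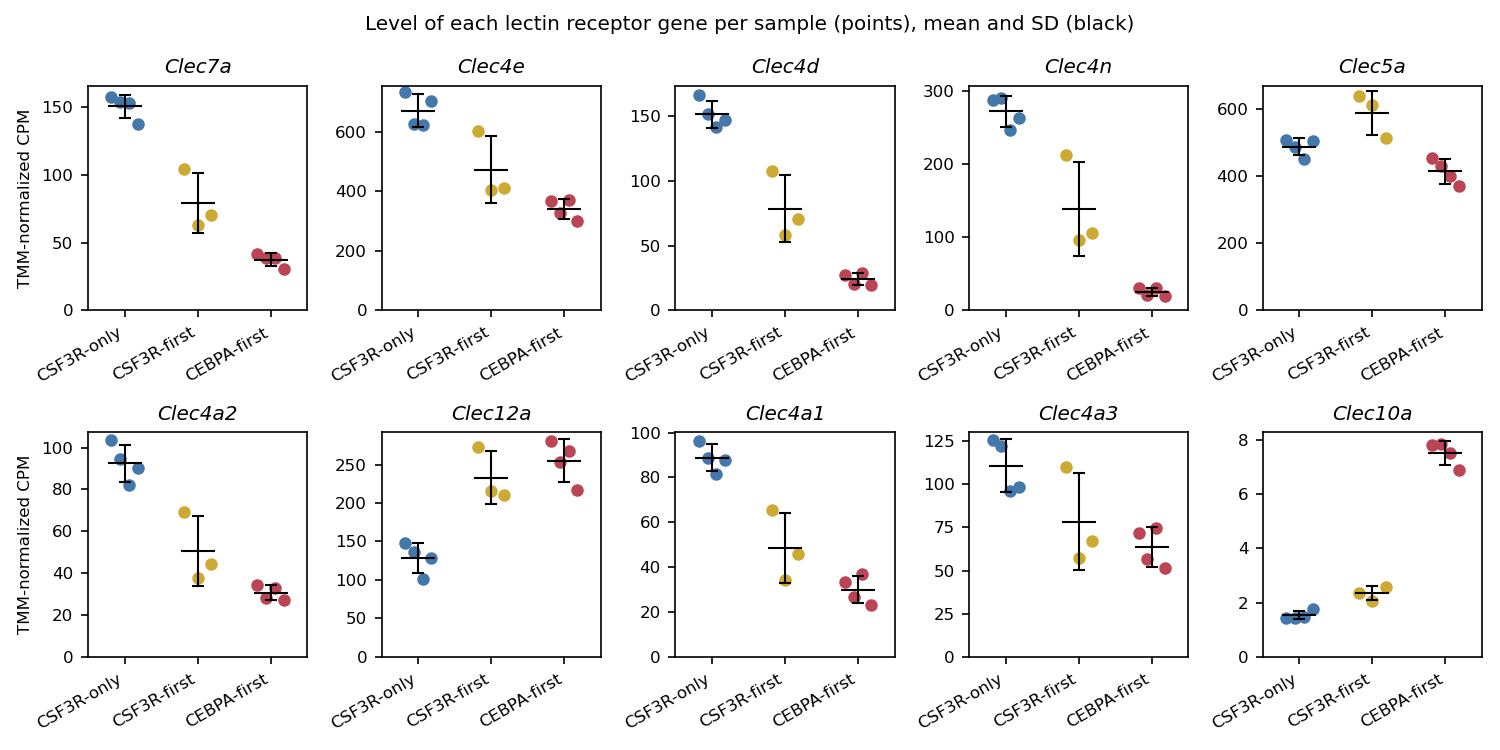
TMM-normalized CPM (vertical axes, each starting at 0) of the 10 receptor genes in every CSF3R-only, CSF3R-first and CEBPA-first sample (points, replicates in letter order from left to right), with the group mean and SD in black. Clec4n falls from 272 to 25.5 CPM between CSF3R-only and CEBPA-first, Clec12a rises from 129 to 255 CPM, and CSF3R-first replicate A is the highest of its group in 9 of the 10 panels.

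Clec4n encodes Dectin-2, which recognises mannose-rich fungal walls and signals through FcRγ. It was at 288, 290, 247 and 263 CPM in CSF3R-only replicates A to D, at 212, 95.8 and 106 CPM in CSF3R-first replicates A to C and at 30.7, 21.3, 29.8 and 20.1 CPM in CEBPA-first replicates A to D. The 3 groups did not overlap, and CSF3R-first replicate A lay nearer to the CSF3R-only samples than to the rest of its own group. CEBPA-first was 10.7-fold below CSF3R-only (log2 fold change -3.42, SE 0.24, edgeR quasi-likelihood test, Benjamini-Hochberg adjusted p = 6.9e-08) and 5.42-fold below CSF3R-first (log2 fold change -2.44, SE 0.24, edgeR adjusted p = 7.9e-06). CSF3R-first was 1.97-fold below CSF3R-only (log2 fold change -0.98, SE 0.24, edgeR adjusted p = 0.0060).

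Clec4d encodes MCL, a partner receptor of Mincle that also signals through FcRγ. Its levels were 166, 152, 142 and 147 CPM in the CSF3R-only samples, 107, 57.8 and 70.2 CPM in the CSF3R-first samples and 27.6, 20.5, 29.0 and 19.3 CPM in CEBPA-first. Again no sample of 1 group reached the range of another. The gene was 6.29-fold lower in the CEBPA-first group than in CSF3R-only (log2 fold change -2.65, SE 0.18, edgeR adjusted p = 6.2e-08), 3.26-fold lower than in CSF3R-first (-1.70, SE 0.19, edgeR adjusted p = 1.9e-05), and 1.93-fold lower in CSF3R-first than in CSF3R-only (-0.95, SE 0.19, edgeR adjusted p = 0.0019). The window printed above for Clec4d holds a single PU.1-type match and no C/EBP-type match.

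Clec7a encodes Dectin-1, the receptor for fungal β-glucans, which carries its own SYK-binding motif. It stood at 157, 154, 153 and 138 CPM in the CSF3R-only samples, at 104, 63.3 and 70.1 CPM in the CSF3R-first samples and at 41.7, 38.5, 38.3 and 30.5 CPM in CEBPA-first, with no overlap between groups. The fall was 4.04-fold from CSF3R-only to CEBPA-first (log2 fold change -2.02, SE 0.14, edgeR adjusted p = 7.2e-08), 1.90-fold from CSF3R-only to CSF3R-first (-0.92, SE 0.15, edgeR adjusted p = 0.00057) and 2.13-fold from CSF3R-first to CEBPA-first (-1.09, SE 0.15, edgeR adjusted p = 9.8e-05).

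Clec4e encodes Mincle, which binds mycobacterial glycolipid and a nuclear protein released by dying cells. It had the most reads of the 10 genes in the CSF3R-only samples, at 731, 624, 622 and 701 CPM, and was at 602, 403 and 411 CPM in the CSF3R-first samples and at 367, 327, 369 and 299 CPM in CEBPA-first. The groups were separate, but the steps were small: CEBPA-first was 1.97-fold below CSF3R-only (log2 fold change -0.98, SE 0.12, edgeR adjusted p = 1.1e-05), just short of the 2-fold limit used for a call. CSF3R-first was 1.42-fold below CSF3R-only (-0.51, SE 0.13, edgeR adjusted p = 0.0093) and CEBPA-first 1.39-fold below CSF3R-first (-0.47, SE 0.13, edgeR adjusted p = 0.011). Of these, the step between CSF3R-only and CSF3R-first missed the threshold without CSF3R-first replicate B (edgeR adjusted p = 0.052) or C (0.051), and the step between CSF3R-first and CEBPA-first missed it without CSF3R-first replicate A (log2 fold change -0.25, edgeR adjusted p = 0.054).

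Clec5a encodes MDL-1, a DAP12-coupled receptor known for binding flaviviruses. Its levels were 507, 488, 452 and 504 CPM in the CSF3R-only samples, 639, 611 and 513 CPM in the CSF3R-first samples and 454, 431, 399 and 370 CPM in CEBPA-first. CSF3R-first was above both other groups in every sample, whereas CSF3R-only and CEBPA-first met at 452 and 454 CPM. The gene was 1.42-fold lower in CEBPA-first than in CSF3R-first (log2 fold change -0.51, SE 0.09, edgeR adjusted p = 0.00075). Its differences from CSF3R-only were smaller: 0.27 (SE 0.09, edgeR adjusted p = 0.030) in CSF3R-first and -0.24 (SE 0.08, edgeR adjusted p = 0.022) in CEBPA-first on the log2 scale. The first missed the threshold without CSF3R-only replicate B or C or without CSF3R-first replicate A or B, with edgeR adjusted p up to 0.10. The second missed it without CSF3R-only replicate A or D or CEBPA-first replicate C or D, or with no filter on low counts, with edgeR adjusted p up to 0.13.

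The inhibitory receptors with an ITIM moved in opposite directions. Clec4a2 encodes DCIR, the mouse counterpart of human CLEC4A. It was at 103, 94.6, 82.3 and 90.1 CPM in the CSF3R-only samples, 69.3, 37.5 and 44.4 CPM in the CSF3R-first samples and 34.3, 28.2, 32.9 and 27.4 CPM in CEBPA-first, so that the groups were ordered without overlap. CEBPA-first was 3.02-fold below CSF3R-only (log2 fold change -1.59, SE 0.16, edgeR adjusted p = 1.4e-06), CSF3R-first 1.84-fold below CSF3R-only (-0.88, SE 0.17, edgeR adjusted p = 0.0016) and CEBPA-first 1.64-fold below CSF3R-first (-0.72, SE 0.17, edgeR adjusted p = 0.0039).

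Clec12a encodes MICL, an inhibitory receptor for uric acid crystals that is also a surface antigen of human acute myeloid leukemia cells. It was at 148, 136, 101 and 129 CPM in CSF3R-only, and rose to 272, 216 and 211 CPM in the CSF3R-first samples and 281, 254, 268 and 216 CPM in CEBPA-first. Every sample with mutant CEBPA exceeded every CSF3R-only sample, while the ranges of the 2 orders of mutation overlapped. The rise was 1.98-fold in CEBPA-first (log2 fold change 0.99, SE 0.12, edgeR adjusted p = 9.3e-06) and 1.81-fold in CSF3R-first (0.86, SE 0.13, edgeR adjusted p = 0.00037). Between the orders the log2 difference was 0.13 (SE 0.13, edgeR adjusted p = 0.45), which did not exceed the spread between samples.

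Clec4a1 and Clec4a3 are DCIR relatives without an ITIM. Clec4a1 was at 96.3, 88.8, 81.7 and 87.9 CPM in the CSF3R-only samples, 65.4, 34.4 and 45.7 CPM in the CSF3R-first samples and 33.4, 26.7, 36.8 and 23.2 CPM in CEBPA-first. It followed Clec4a2 more closely than any other pair among the 10 did: after centring each gene on its mean over the 11 samples, the root mean square difference of their log2 CPM was 0.097, against 0.170 for the next pair, Clec4e and Clec4a3. Clec4a1 was 2.96-fold lower in the CEBPA-first group than in CSF3R-only (log2 fold change -1.56, SE 0.18, edgeR adjusted p = 4.2e-06) and 1.83-fold lower in CSF3R-first than in CSF3R-only (-0.87, SE 0.19, edgeR adjusted p = 0.0033). CEBPA-first and CSF3R-first overlapped (log2 fold change -0.69, SE 0.19, edgeR adjusted p = 0.0089), and this difference missed the threshold without CSF3R-first replicate A (-0.42, edgeR adjusted p = 0.052).

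Clec4a3 was at 126, 122, 96.4 and 98.8 CPM in the CSF3R-only samples, 110, 57.5 and 67.4 CPM in the CSF3R-first samples and 71.7, 56.7, 74.8 and 51.4 CPM in CEBPA-first. CSF3R-first replicate A lay among the CSF3R-only samples and replicates B and C among the CEBPA-first samples. Only the comparison of CEBPA-first with CSF3R-only passed the test, at 1.74-fold lower (log2 fold change -0.80, SE 0.19, edgeR adjusted p = 0.0016). For CSF3R-first against CSF3R-only the log2 fold change was -0.50 (SE 0.20, edgeR adjusted p = 0.061), and it passed with DESeq2 (-0.49, DESeq2 adjusted p = 0.039). Without CSF3R-first replicate A the log2 fold change was -0.83, with an edgeR adjusted p of 0.00087. Between CEBPA-first and CSF3R-first it was -0.30 (SE 0.20, edgeR adjusted p = 0.23), and 0.029 (edgeR adjusted p = 0.90) without that replicate.

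Clec10a encodes MGL1, a receptor for galactose and N-acetylgalactosamine found on macrophages and dendritic cells. It was the lowest of the 10 by far, with 67 to 111 counts per sample in CSF3R-only and 391 to 541 in CEBPA-first. Its levels were 1.45, 1.44, 1.47 and 1.76 CPM in the CSF3R-only samples, 2.35, 2.07 and 2.59 CPM in the CSF3R-first samples and 7.81, 7.84, 7.51 and 6.91 CPM in CEBPA-first, and it rose with no overlap between groups. CEBPA-first exceeded CSF3R-only 4.89-fold (log2 fold change 2.29, SE 0.12, edgeR adjusted p = 5.2e-09) and CSF3R-first 3.20-fold (1.68, SE 0.13, edgeR adjusted p = 9.9e-07), and CSF3R-first exceeded CSF3R-only 1.53-fold (0.61, SE 0.13, edgeR adjusted p = 0.0026). Mgl2, its near-identical neighbour, moved the same way, from 1.03 ± 0.282 CPM (SD, n = 4) in CSF3R-only to 7.07 ± 1.31 CPM (n = 4) in CEBPA-first. Since reads may be divided between the pair, the 2 changes may not be independent. Dendritic cell markers moved in both directions in CEBPA-first against CSF3R-only: of 6 tested, 3 were called lower, Itgax among them (9.88 to 1.60 CPM), and 1 higher, Flt3 (2.34 to 6.60 CPM, edgeR adjusted p = 5.4e-05), beside 19.0% and 8.07% of all genes. The summed level of 8 dendritic cell markers was 15.2 to 17.5 CPM in the CSF3R-only samples, 14.4 to 15.5 for CSF3R-first and 9.27 to 10.6 in CEBPA-first. The part of dendritic cells in the Clec10a level was not tested.

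**Figure D2:**
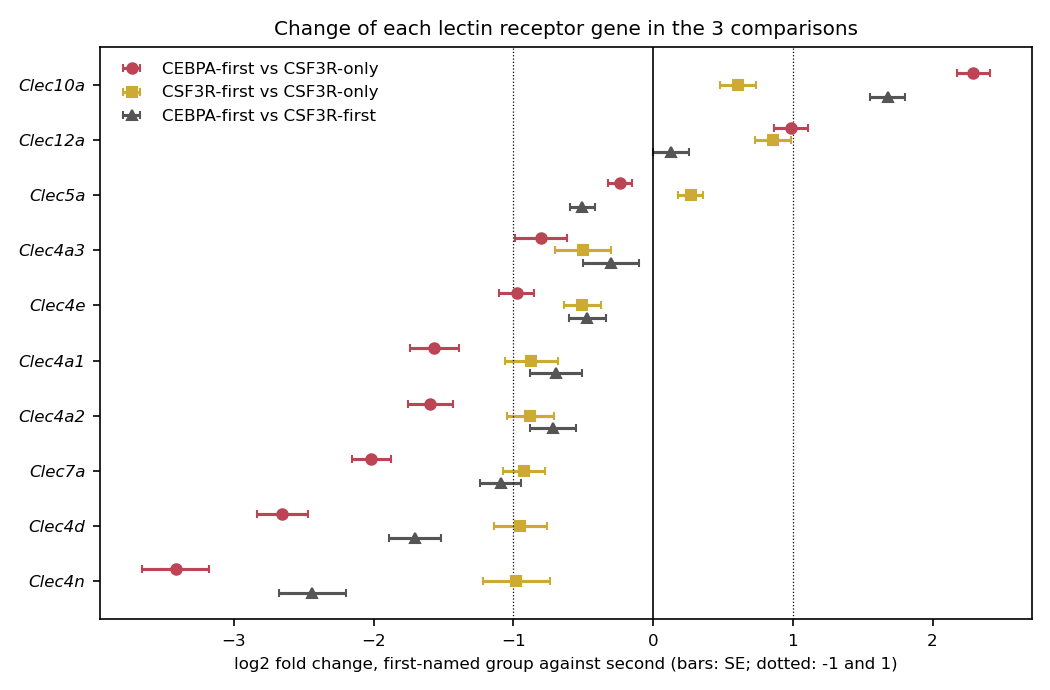
Log2 fold change of each receptor gene in the 3 comparisons (horizontal axis, first-named group against second), with bars for the standard error and dotted lines at -1 and 1. Clec4n, Clec4d and Clec7a lie furthest to the left for CEBPA-first against CSF3R-only, Clec10a furthest to the right, and all values for CSF3R-first against CSF3R-only lie between the dotted lines.

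A gene was called when its edgeR adjusted p over all 15703 tested genes was under 0.05 and it changed at least 2-fold. In CEBPA-first against CSF3R-only 6 of the 10 receptor genes were called, 5 lower (Clec4n, Clec4d, Clec7a, Clec4a2 and Clec4a1) and 1 higher (Clec10a). Clec12a and Clec4e lay next to the 2-fold limit: DESeq2 called 7 genes, Clec12a included, edgeR with no filter on low counts also called Clec12a (1.06), and with at least 10 counts in every sample Clec4e (-1.02) was called in its place. Of all tested genes 19.0% were called lower and 8.07% higher in that comparison. By the adjusted p alone all 10 changed, 8 lower and 2 higher, where the shares of all genes were 36.6% and 35.4%. The groups did not overlap for 7 genes that were lower and 2 that were higher, beside 34.5% and 34.2% of all genes. The median log2 fold change of the 10 was -1.27, and that of all tested genes was -0.0045.

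In CSF3R-first against CSF3R-only none of the 10 was called by edgeR in the main fit, beside 4.53% of all genes lower and 2.13% higher. By the adjusted p alone 9 of the 10 passed, 6 lower and 3 higher, beside 21.1% and 21.6% of all genes. An unadjusted p under 0.05 was found for 10, and DESeq2 gave 10 by adjusted p and 0 with the 2-fold limit. The groups did not overlap for 6 genes that were lower and 3 that were higher, beside 21.4% and 20.7% of all genes. The median log2 fold change was -0.69, against -0.022 for all genes. The count of 0 rests on CSF3R-first replicate A: without it 5 genes were called lower, namely Clec4n (-1.43), Clec4d (-1.24), Clec4a2 (-1.18), Clec7a (-1.17) and Clec4a1 (-1.14). Over all genes, leaving out 1 sample in turn gave 819 to 1435 called, against 1045 with every sample kept. Without CSF3R-only replicate C, Clec4n alone was called (-1.02). The fit with a replicate block also called some of the 10, as given in the closing section.

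CEBPA-first and CSF3R-first differ in the order in which the same pair of mutations was switched on. They also differ in which mutation sat in the constitutive vector and which in the Cre-opened one, so order and vector cannot be told apart. In this comparison 4 of the 10 were called, Clec4n, Clec4d and Clec7a lower and Clec10a higher, beside 10.3% of all genes lower and 2.57% higher. Without CSF3R-first replicate A, Clec7a changed by -0.84 on the log2 scale and missed the 2-fold limit, which left 3 called. By the adjusted p alone 7 were lower and 1 higher, beside 24.3% and 24.0% of all genes, and the groups did not overlap for 6 lower and 1 higher, beside 24.8% and 27.4%. The median log2 fold change was -0.60, against 0.00052 for all genes. Both comparisons with CSF3R-only use the same control samples, and the comparison of the 2 orders shares its samples with them, so the 3 sets of values are not independent of each other.

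With CSF3R-only set at 0 and CEBPA-first at 1 on the log2 scale, CSF3R-first lay at 0.264 for Clec10a, 0.311 for Clec4n, 0.373 for Clec4d, 0.473 for Clec7a, 0.539 for Clec4e, 0.579 for both Clec4a2 and Clec4a1, 0.677 for Clec4a3 and 0.868 for Clec12a. The 3 replicates were spread along this scale: for Clec4n replicate A lay at 0.104 and replicates B and C at 0.437 and 0.393, and for Clec4e at 0.155, 0.747 and 0.716. For Clec4a3 replicate A lay at -0.0039 and replicates B and C at 1.16 and 0.875, so its mean position rests on replicate A. Clec5a lay beyond the CSF3R-only end, at -1.10. Clec12a in CSF3R-first was close to its CEBPA-first level.

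Levels can be compared between genes only per length, and CPM per kilobase (kb) of merged exons is used for that. In CSF3R-only Clec4n was the highest at 191 ± 14.7 CPM per kb (SD, n = 4), above Clec4e at 135 ± 11.1 and Clec5a at 127 ± 6.66, which overlapped each other. Clec4d (94.8) and Clec4a3 (83.5) followed and overlapped, then Clec7a (57.1) and Clec4a1 (56.9), which also overlapped, then Clec4a2 (31.6), Clec12a (23.3) and Clec10a (0.528), each apart from the next. In CEBPA-first the order began with Clec5a at 108 ± 9.47 CPM per kb and Clec4e at 68.6 ± 6.84, each apart from the next. Clec4a3 (47.9) and Clec12a (46.1) overlapped, and Clec4a1 (19.3), Clec4n (17.9), Clec4d (15.1), Clec7a (14.1) and Clec4a2 (10.5) each overlapped the next in line, above Clec10a (2.59). The place of Clec12a depends on which length is used. Per kb of its longest transcript it was at 31.2 to 45.8 CPM in CSF3R-only, overlapping Clec4a2 at 33.2 to 41.7 and above it on average, and at 66.9 to 86.8 CPM in CEBPA-first, overlapping Clec4e at 62.2 to 76.9 and second in the order.

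In CSF3R-first the order was Clec5a (153 CPM per kb), Clec4n (97.2), Clec4e (95.0), Clec4a3 (59.1), Clec4d (49.1), Clec12a (42.2), Clec4a1 (31.1) and Clec7a (30.1), each overlapping the next, followed by Clec4a2 (17.2) and Clec10a (0.807), which were apart. Summed over the 10 genes the level was 801 ± 54.4 CPM per kb (n = 4) in the CSF3R-only samples, 575 ± 145 (n = 3) for CSF3R-first and 350 ± 39.7 (n = 4) in CEBPA-first. CEBPA-first lay below both other groups, at 299 to 387, and the highest CSF3R-first sample, at 742, lay just above the lowest CSF3R-only sample, at 735. Dectin-2, first in CSF3R-only, was at rank 6 in CEBPA-first, where it overlapped the genes on both sides, and at rank 7 per kb of the longest transcript.

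**Figure D3:**
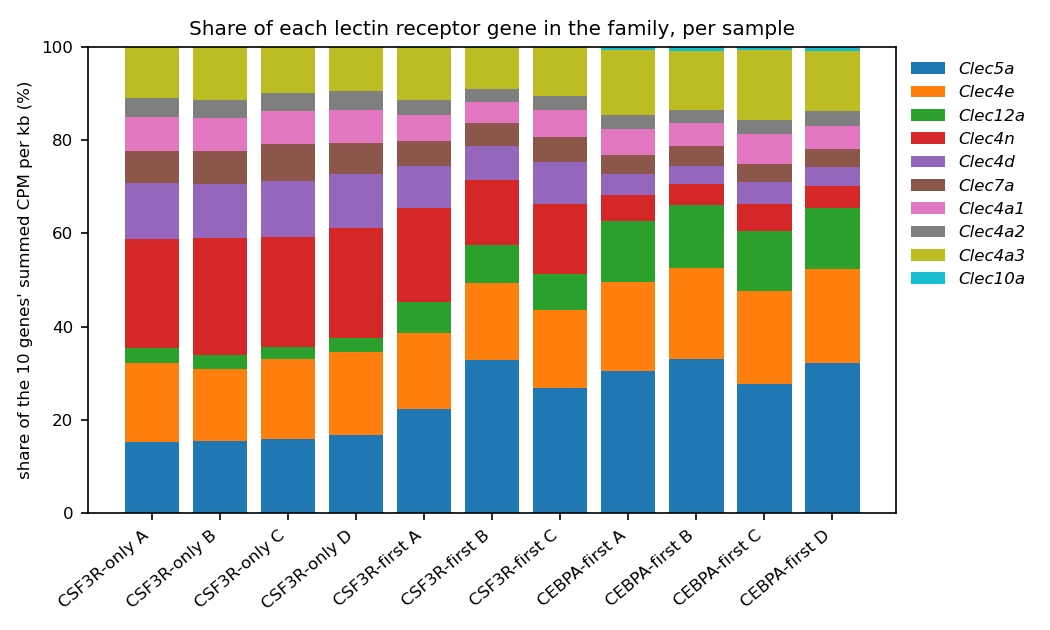
Share of each receptor gene in the summed CPM per kb of the 10 genes (vertical axis, percent), stacked for each of the 11 samples. The Clec4n share shrinks from 23.9% in CSF3R-only to 5.09% in CEBPA-first, while those of Clec5a and Clec12a widen from 15.9% to 30.9% and from 2.89% to 13.2%.

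The makeup of the family shifted with its total. Clec4n made up 23.9 ± 0.747% of the summed level in the CSF3R-only samples, 16.4 ± 3.30% for CSF3R-first and 5.09 ± 0.598% in CEBPA-first. Clec5a went from 15.9 ± 0.614% to 27.4 ± 5.18% and 30.9 ± 2.36%, and Clec12a from 2.89 ± 0.277% to 7.46 ± 0.732% and 13.2 ± 0.265% (SD, n = 4, 3 and 4). The share of Clec4e stayed between 16.6 and 19.6% on average in all 3 groups. Ratios within a sample, picked after their values had been seen and given with no test, show the same shift between receptors that use FcRγ: Clec4n per kb was 1.42 ± 0.138 times Clec4e in the CSF3R-only samples, 0.989 ± 0.213 times in CSF3R-first and 0.259 ± 0.0327 times in CEBPA-first. Of the inhibitory pair, Clec12a per kb was 0.732 ± 0.0552, 2.55 ± 0.485 and 4.40 ± 0.254 times Clec4a2 in the same order of groups. Per kb of the longest transcript this ratio was 1.06 ± 0.0800, 3.70 ± 0.704 and 6.38 ± 0.368, so Clec12a was below Clec4a2 in the CSF3R-only samples by one length and level with it by the other, and the Clec12a share became 4.58, 11.6 and 19.9%.

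Of 29 genes through which these receptors signal, all tested, 10 were called lower and 0 higher in CEBPA-first against CSF3R-only, beside 19.0% and 8.07% of all genes. By adjusted p alone 22 were lower and 3 higher, beside 36.6% and 35.4% of all genes. The median log2 fold change of the 29 was -0.68. Fcer1g, the FcRγ chain used by Dectin-2, MCL and Mincle, was at 755 ± 69.0 CPM in the CSF3R-only samples, 537 ± 145 for CSF3R-first and 265 ± 27.1 in CEBPA-first (log2 fold change of CEBPA-first against CSF3R-only -1.51, SE 0.14, edgeR adjusted p = 6.5e-07). Tyrobp, the DAP12 adaptor of Clec5a, was at 620 ± 55.3, 384 ± 113 and 151 ± 16.9 CPM in the 3 groups (-2.04, SE 0.15, edgeR adjusted p = 1.1e-07). Clec5a, which pairs with Tyrobp, fell less, to 0.848 times its CSF3R-only level in CEBPA-first. Per kb, in a ratio also picked after its values had been seen, Clec5a was 0.137 ± 0.00983 times Tyrobp in the CSF3R-only samples, 0.279 ± 0.0758 times in CSF3R-first and 0.479 ± 0.0610 times in CEBPA-first.

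Syk, the kinase that all activating receptors of the set feed into, was at 476 ± 36.2, 342 ± 35.5 and 233 ± 20.4 CPM for CSF3R-only, for CSF3R-first and for CEBPA-first (-1.03, SE 0.09, edgeR adjusted p = 3.2e-07 for CEBPA-first against CSF3R-only). Card9, which links SYK to NF-κB, was at 36.2 ± 2.68, 30.7 ± 5.37 and 22.9 ± 1.67 CPM (-0.66, SE 0.10, edgeR adjusted p = 5.3e-05). The SRC-family kinases, which phosphorylate the receptors' activating motifs, included Src (log2 fold change -4.02) and Fgr (-2.72). Src itself was a low gene, at 7.48 ± 1.17 CPM in CSF3R-only and 0.464 ± 0.104 CPM in CEBPA-first. Of the genes that act with or below CARD9, Bcl10 was called lower (-1.09, edgeR adjusted p = 2.5e-07), Rela (-0.79) and Rel (-0.47) were lower by adjusted p alone, and Map3k7 (0.42), Malt1 (0.50) and Traf6 (0.24) were higher by adjusted p alone. In CSF3R-first against CSF3R-only 2 of the 29 were called lower, Src (-1.46) among them, a share near the 4.53% of all genes, and 19 were lower by adjusted p alone and none higher, beside 21.1% and 21.6%. Between the orders 5 of the 29 were called, all lower in CEBPA-first, beside 10.3% of all genes lower.

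**Figure D4:**
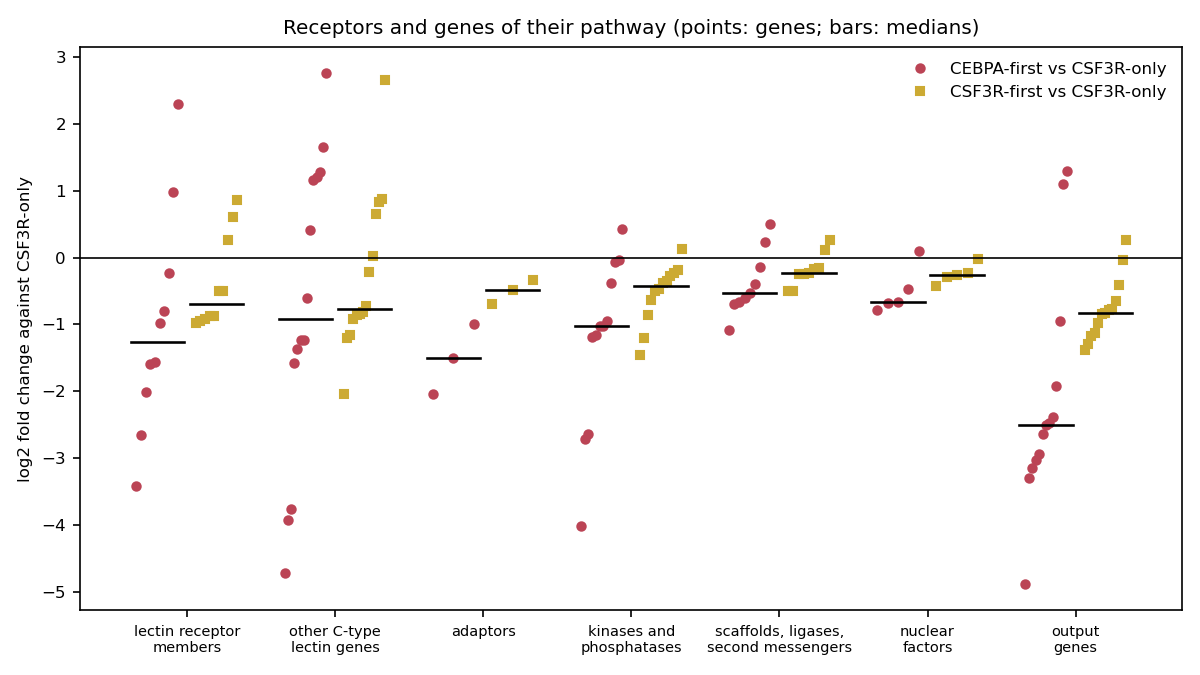
Log2 fold change against CSF3R-only (vertical axis) of CEBPA-first (circles) and CSF3R-first (squares) for each tested receptor gene, other C-type lectin gene, signalling gene and output gene, with a bar at the median of each list. The medians for CEBPA-first run from -0.53 for scaffolds, ligases and second messengers to -2.50 for output genes, with -1.27 for the 10 receptor genes.

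Cytokine, chemokine and other genes that these receptors are known to induce had a lower median change than the receptors. Of 15 output genes 13 were tested, and 10 were called lower and 2 higher in CEBPA-first against CSF3R-only, beside 19.0% and 8.07% of all genes, with a median log2 fold change of -2.50. Il1b, the gene of interleukin-1β, was at 195 ± 24.8 CPM in the CSF3R-only samples, 79.5 ± 35.6 for CSF3R-first and 6.58 ± 1.0 in CEBPA-first (-4.89, SE 0.24, edgeR adjusted p = 3.4e-09). Cxcl2, a neutrophil chemokine, changed by -3.30 (SE 0.25) and Tnf by -3.14 (SE 0.18) on the log2 scale. Il6 and Il10 went the other way, by 1.29 (SE 0.26, edgeR adjusted p = 0.00057) and 1.10 (SE 0.23, edgeR adjusted p = 0.00076). In CSF3R-first against CSF3R-only 3 of the 13 were called lower and none higher, beside 4.53% and 2.13% of all genes, and between the orders 9 were lower and 2 higher in CEBPA-first, beside 10.3% and 2.57%.

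C-type lectin genes outside the set moved in both directions. Of 28 such genes 14 passed the filter, and 7 were called lower and 5 higher in CEBPA-first against CSF3R-only, beside 19.0% and 8.07% of all genes, with a median log2 fold change of -0.91. Clec1b, the platelet receptor CLEC-2 (log2 fold change -4.71), Cd302 (-3.93) and Colec12, a scavenger receptor (-3.76), fell most. Mgl2 (2.77), Clec4b2 (1.65) and Clec2i (1.27) rose most. Clec4b2, which lies inside the chromosome 6 stretch beside Clec4n, was highest in CSF3R-first, at 11.6 ± 3.07 CPM (n = 3) against 1.83 ± 0.222 (n = 4) in CSF3R-only and 5.74 ± 0.498 (n = 4) in CEBPA-first. In CSF3R-first against CSF3R-only 3 of the 14 were called lower and 1 higher, beside 4.53% and 2.13% of all genes. These 4 calls became 8 without CSF3R-first replicate A and 2 without replicate B. Between the orders 4 were lower and 2 higher, beside 10.3% and 2.57%.

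**Figure D5:**
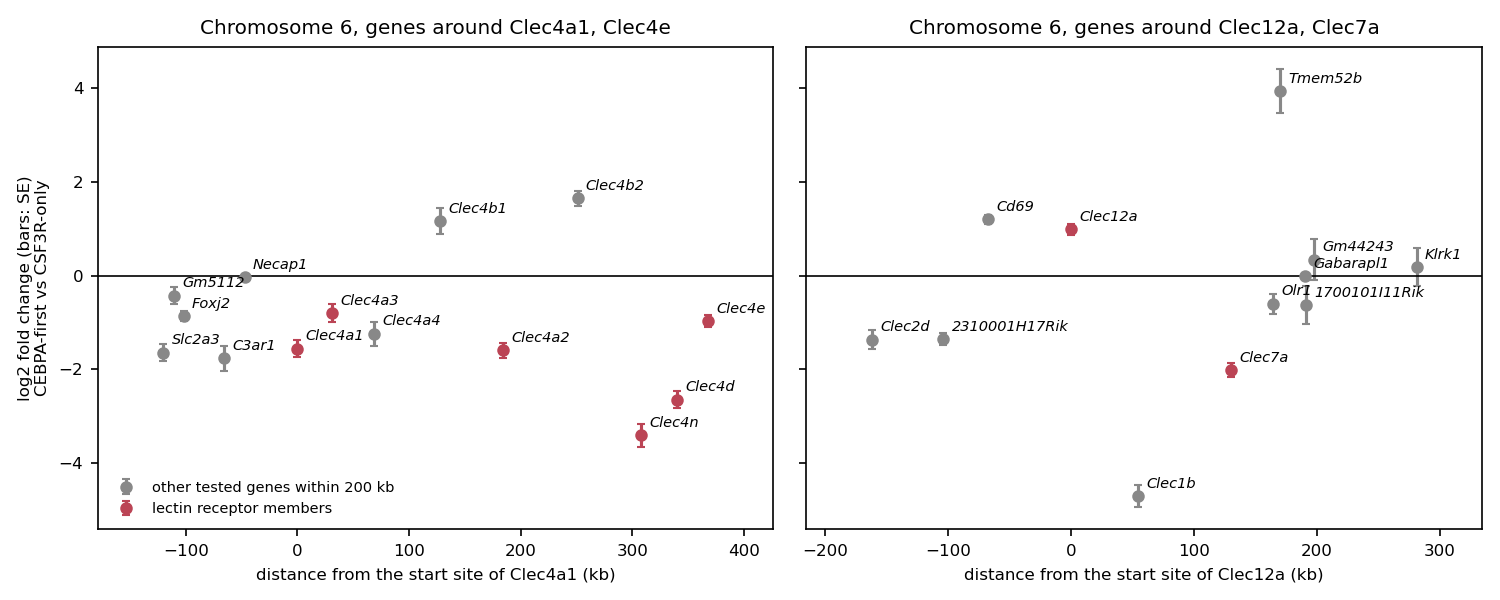
Log2 fold change of CEBPA-first against CSF3R-only (vertical axis, bars for the SE) of receptor genes (red) and other tested genes within 200 kb (grey), by distance of their start sites from that of Clec4a1 (left) or Clec12a (right) in kb. Neighbouring genes differ in direction, with Clec4b1 (1.16) and Clec4b2 (1.65) above 0 among Clec4 genes below it, and Clec1b (-4.71) next to Clec12a (0.99).

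Neighbouring genes moved in both directions, as genes did over the whole table. Within 200 kb of the 10 genes lie 85 other annotated genes, of which 39 were tested, and 11 of these were called lower and 7 higher in CEBPA-first against CSF3R-only, beside 19.0% and 8.07% of all genes. Inside and around the Clec4 stretch 8 neighbours were tested. The glucose transporter gene Slc2a3 (-1.65), the complement receptor gene C3ar1 (-1.77) and Clec4a4 (-1.24) were lower, and Clec4b1 (1.16) and Clec4b2 (1.65) were higher. Around Clec12a and Clec7a, which lie within 130 kb and changed in opposite directions, Clec2d (-1.37), 2310001H17Rik (-1.36) and Clec1b (-4.71) were lower and Cd69 (1.20) and Tmem52b (3.94) higher. Beside Clec5a, Mgam (-1.24) and E330009J07Rik (-1.27) were lower. Beside Clec10a, Alox12 (-6.36), Alox12e (-3.31) and Gabarap (-1.08) were lower, and Mgl2 (2.77), Slc16a11 (1.90) and Slc16a13 (1.38) were higher.

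The tested genes whose log2 CPM over the 11 samples, centred on each gene's mean, came nearest to the mean of the 10 receptors were Ctsa, a lysosomal carboxypeptidase gene, with a root mean square difference of 0.053, Hdac5, a histone deacetylase gene, at 0.065, and Pld4, a nuclease gene of endosomes, at 0.065. Among the 10 themselves Clec4e was nearest to that mean, at 0.080, and Clec10a farthest, at 1.44. Ctsa stood at 672, 505 and 341 CPM on average for CSF3R-only, for CSF3R-first and for CEBPA-first. The mean of the 10 joins genes that rose and genes that fell, so it describes the set and no single receptor.

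Most markers of neutrophils, monocytes and macrophages were lower in CEBPA-first. Of 10 neutrophil markers 9 were called lower in CEBPA-first against CSF3R-only, 6 in CSF3R-first against CSF3R-only and 9 between the orders, over the summed levels given above. Of all genes 19.0%, 4.53% and 10.3% were called lower in these comparisons, and 8.07% higher in CEBPA-first against CSF3R-only. The median log2 fold change of the 10 neutrophil markers in CEBPA-first against CSF3R-only was -4.36. Mmp8 (-0.68), the largest part of their CEBPA-first sum, was the marker not called. Of 10 monocyte and macrophage markers 9, 2 and 7 were called lower, and their summed level was 2868 to 3688 CPM in the CSF3R-only samples, 1603 to 2762 for CSF3R-first and 896 to 1253 in CEBPA-first. No gene of either list was at 0 in all samples. Ly6c2, a gene of classical monocytes, was not among those called: it averaged 234, 251 and 291 CPM and was higher by adjusted p alone in CEBPA-first against CSF3R-only (log2 fold change 0.32, edgeR adjusted p = 0.043). Progenitor markers summed to 211 to 282 CPM over 6 genes in the CSF3R-only samples, 222 to 319 for CSF3R-first and 407 to 450 in CEBPA-first. Of these 6 genes, 3 were called higher and 2 lower in CEBPA-first against CSF3R-only: Myb, at 108 and 331 CPM, made up most of the CEBPA-first sum, while Cd34 (88.8 and 17.9 CPM) and Meis1 (18.8 and 6.40 CPM) were lower. Mast cell and basophil markers summed to 1503 to 2337, 969 to 1164 and 1086 to 1457 CPM in the 3 groups, and of 6 genes Mcpt8 (-2.20) and Cma1 (-2.15) were called lower and Fcer1a (1.15) higher in CEBPA-first against CSF3R-only. Eosinophil markers summed to 224 to 334, 54.6 to 126 and 27.3 to 33.7 CPM, and erythroid markers to 204 to 301, 92.3 to 291 and 25.0 to 38.5 CPM. Lymphoid markers summed to at most 7.50 CPM over 9 genes in any sample. The part of these cell types in the receptor levels was not tested.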

How the data were processed

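Total RNA was made into libraries with a low-input cDNA kit, and per the study's methods reads were trimmed with Trimmomatic and aligned with STAR. The submitters' processing notes name STAR, DESeq2 and mm10. The counting tool, annotation and strand setting are not given in the sources used here. The authors deposited whole-number counts per gene for all 11 samples, without normalization, and the 279 identifiers that have no symbol made up at most 0.0279% of any library.

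Counts were analysed in R 4.3.3 with edgeR 4.0.16: TMM factors, filterByExpr and the quasi-likelihood test, fitted once over the 3 groups with no covariate, and Benjamini-Hochberg adjustment over 15703 genes. Log2 CPM values had a prior count of 2 added, and all CPM were scaled by TMM. A gene was called at an adjusted p under 0.05 and an absolute log2 fold change of at least 1. The floor of 3 counts covers counting error only. Group labels came from the sample titles. DESeq2 1.42.0, other normalizations and filters, a fit of only the compared groups, a replicate block and each sample left out in turn were alternatives. The scripts were tested on simulated counts. Gene positions and exon lengths came from GENCODE M21, near-identical stretches from BLAST 2.17.0 and promoter windows from RefSeq. Figures were drawn with matplotlib 3.10.9.

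All 10 receptor genes were named in every comparison. Fcer1g, Tyrobp, Syk and Card9 were named, and of the other C-type lectin, signalling and output lists up to 3 called genes that rose and 3 that fell most in CEBPA-first against CSF3R-only. One gene that this rule names is not reported here. Further genes named are the 3 nearest to the mean receptor profile, called neighbours within 200 kb, and single signalling and marker genes picked after their values were seen. Marker lists are otherwise given by their counts and sums. The members and lists were chosen with earlier results of these data known.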

Additional observations from a re-analysis of the deposited data

Results flagged for a closer look

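One value stood far from its group. Clec10a was at 1.76 CPM in CSF3R-only replicate D, while the other CSF3R-only samples lay between 1.44 and 1.47 CPM, so that the gap made up most of the range of the group. Dixon's test at the 95% level was applied to the 10 genes in the groups of 4 samples, 20 tests in all, of which 1 is expected to pass by chance and 1 did.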

How the results depend on the processing

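Across 430 values of single receptor genes under other settings, 412 kept their direction and their side of the threshold, 13 missed the threshold, 4 newly passed it and 1 reversed: Clec4a3 in CEBPA-first against CSF3R-first ranged from -0.48 to 0.029 with 1 sample left out, the latter without CSF3R-first replicate A. With adjusted p under 0.05 alone, the counts for CEBPA-first against CSF3R-only, CSF3R-first against CSF3R-only and CEBPA-first against CSF3R-first became 10, 9 and 8 receptor genes (6, 0 and 4 with the 2-fold limit), 25, 19 and 19 signalling genes (10, 2 and 5) and 11314, 6703 and 7578 of all genes (4244, 1045 and 2016), and 11 other C-type lectins (4) in CSF3R-first against CSF3R-only. With at least 10 counts in every sample, which leaves fewer genes, 2 other lectins and 566 of all genes were called in CSF3R-first against CSF3R-only and 1219 of all genes between the orders. Leaving out 1 sample gave 0 to 5 receptor genes and 2 to 8 other lectins in CSF3R-first against CSF3R-only, 6 to 8 receptor genes in CEBPA-first against CSF3R-only and 3 to 4 between the orders. The 8 other lectins came without CSF3R-first replicate A and the 2 without B. The replicate block gave 3 receptor genes in CSF3R-first against CSF3R-only, but same-letter samples correlated at -0.107 to 0.362 and not all above 0.1, so the letters were not taken as pairs. With the longest transcript as the length, 8, 5 and 5 of the 10 genes kept their rank per kb for CSF3R-only, for CSF3R-first and for CEBPA-first, and Clec12a moved in each. Where no cause is given, the cause was not tested.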
